A study of Mus musculus with 8 samples.

Results

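The proteasome genes were examined in RNA of common DC progenitors (CDPs), the bone marrow cells that give rise to dendritic cells (DCs). Members were the protein-coding genes of GENCODE vM21 whose symbol begins with Psm, 1 of the letters a to g and a digit. This rule found 50 genes in the annotation, of which 49 were among the 16119 genes of the count table. The expression of Psmb11, the thymic catalytic subunit, was not analysed here. Psmc3ip is picked up by its symbol only, because it is named for binding Psmc3 and is known for a role in meiotic recombination, so 48 members encode subunits, activators, regulators or assembly factors. The CDPs were sorted as Lin-, c-kit intermediate, Sca1 low, CD115+ and Flt3+ cells from mice labelled C57BL/6 (C57BL/6J in the methods), about 50000 cells a sample. The HFD group (genotype label DIO) was fed 60 kcal% fat and labelled as fed the diet for 16 weeks, and the CF group (DIO-Control), labelled as its age-matched and diet-matched control, received 10 kcal% fat. Each diet had 4 libraries. The methods call them independent replicates, but the sources used here do not say whether cells of several mice were pooled, so the p-values measure the spread between these samples. The labels name no allergen treatment.

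The proteasome is the protease that degrades proteins tagged with ubiquitin. Its barrel-shaped core, the 20S particle, is built of outer rings of alpha subunits and inner rings of beta subunits, and only 3 of the beta subunits (Psmb5, Psmb6 and Psmb7) cut peptide bonds. The 19S particle caps the core, with a base whose ATPases unfold the substrate and a lid that removes its ubiquitin. Cells of the immune system, and other cells exposed to interferon-gamma, can build the immunoproteasome, in which Psmb8, Psmb9 and Psmb10 take the places of Psmb5, Psmb6 and Psmb7, and whose peptides suit presentation on MHC class I. Antigen presentation by DCs draws on these peptides.

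Library totals ran from 28203651 to 48409689 counts. Members held between 106 and 2445 counts in every library, apart from Psma8 with 12 to 60, and together took 0.0941% to 0.154% of a library. All 49 passed the filter on low counts, which kept 15837 genes, 11775 of them protein-coding. Values below are CPM, the counts of a gene per library size and scaled by TMM factors, and in lists by library the replicates stand in the order 1 to 4. The sort markers Flt3, Csf1r, Kit and Cd34 were detected in all libraries, with a summed level of 251 to 619 CPM in HFD, against 466 to 559 in CF. The lowest of these sums was that of HFD replicate 1, in which Flt3 had 88.8 CPM, against 227 to 378 in the other 7 libraries. Markers of other bone marrow cells differed between libraries. The 11 neutrophil genes had summed levels of 20564, 3602, 1283 and 964 CPM in HFD, beside 1954, 6585, 6094 and 5970 in CF, so HFD replicate 1 was the highest and HFD replicate 4 the lowest of the 8. None of the 11 was at 0 in any library. The 6 erythroid genes summed to 335 CPM in HFD replicate 1, against 64.9 to 105 in the other libraries. The 5 B cell genes summed to 442 to 1235 CPM in HFD, highest in HFD replicate 1, against 278 to 498 in CF. Of the 5, 4 were higher in HFD at an unadjusted p below 0.05, beside 3.71% of protein-coding genes, and 0 were called. The 3 plasmacytoid DC genes were all higher at that threshold, with a median log2 fold change of 1.47 and 0 called. In bulk samples, fewer cells of a type and less RNA per cell cannot be told apart.

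To ask whether obesity was accompanied by a change of proteasome gene expression in CDPs, the diets were compared for each gene in 1 edgeR fit over the whole table. No member was called in either direction at an adjusted p below 0.05 (lowest 0.301), where 0.423% of all genes tested were called. At an unadjusted p below 0.05, 6 of 49 members were higher in HFD and 0 lower, beside 3.71% of protein-coding genes higher and 1.67% lower. DESeq2 and limma voom also called 0 members, with 5 each higher in HFD at an unadjusted p below 0.05, where 4.02% of protein-coding genes were so in DESeq2 and 3.62% in limma voom. DESeq2 called 3.53% of all genes, and limma voom 0.442%. The log2 fold change was above 0 for 42 of 49 members, beside 64.6% of protein-coding genes. The median over the members was 0.13 on the log2 scale and that over protein-coding genes 0.07. Every HFD library lay above every CF library for 8 members, where 2.81% of protein-coding genes had this separation, and below for 0 members, where 0.951% had the opposite one.

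The median shift depended on 1 library. HFD replicate 4 was the highest of the 8 libraries in 37 of 49 members (75.5%), but in 19.4% of the protein-coding genes tested. Its members had a median log2 deviation of 0.29 from their means over the libraries, beside 0.04 for protein-coding genes. HFD replicates 2 and 3 had medians of -0.03 and 0.02, within the span of the CF libraries of -0.11 to 0.05, and HFD replicate 1 was just above it at 0.08. With HFD replicate 4 left out, the median over the members was 0.0040 and that over protein-coding genes 0.03, 26 of 49 members were above 0, beside 56.3% of protein-coding genes, and 0 were higher at an unadjusted p below 0.05, beside 2.06%. Members with every HFD library above every CF library numbered 8 without that library too, but with 3 HFD libraries 3.89% of protein-coding genes had this separation. HFD replicate 4 also had the lowest neutrophil and the highest plasmacytoid DC markers (Siglech, Ccr9 and Bst2, summed level 157 CPM, against 45.0 to 113 in the other HFD and 40.8 to 59.3 in the CF libraries), and their part in the result was not tested.

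**Figure D1:**
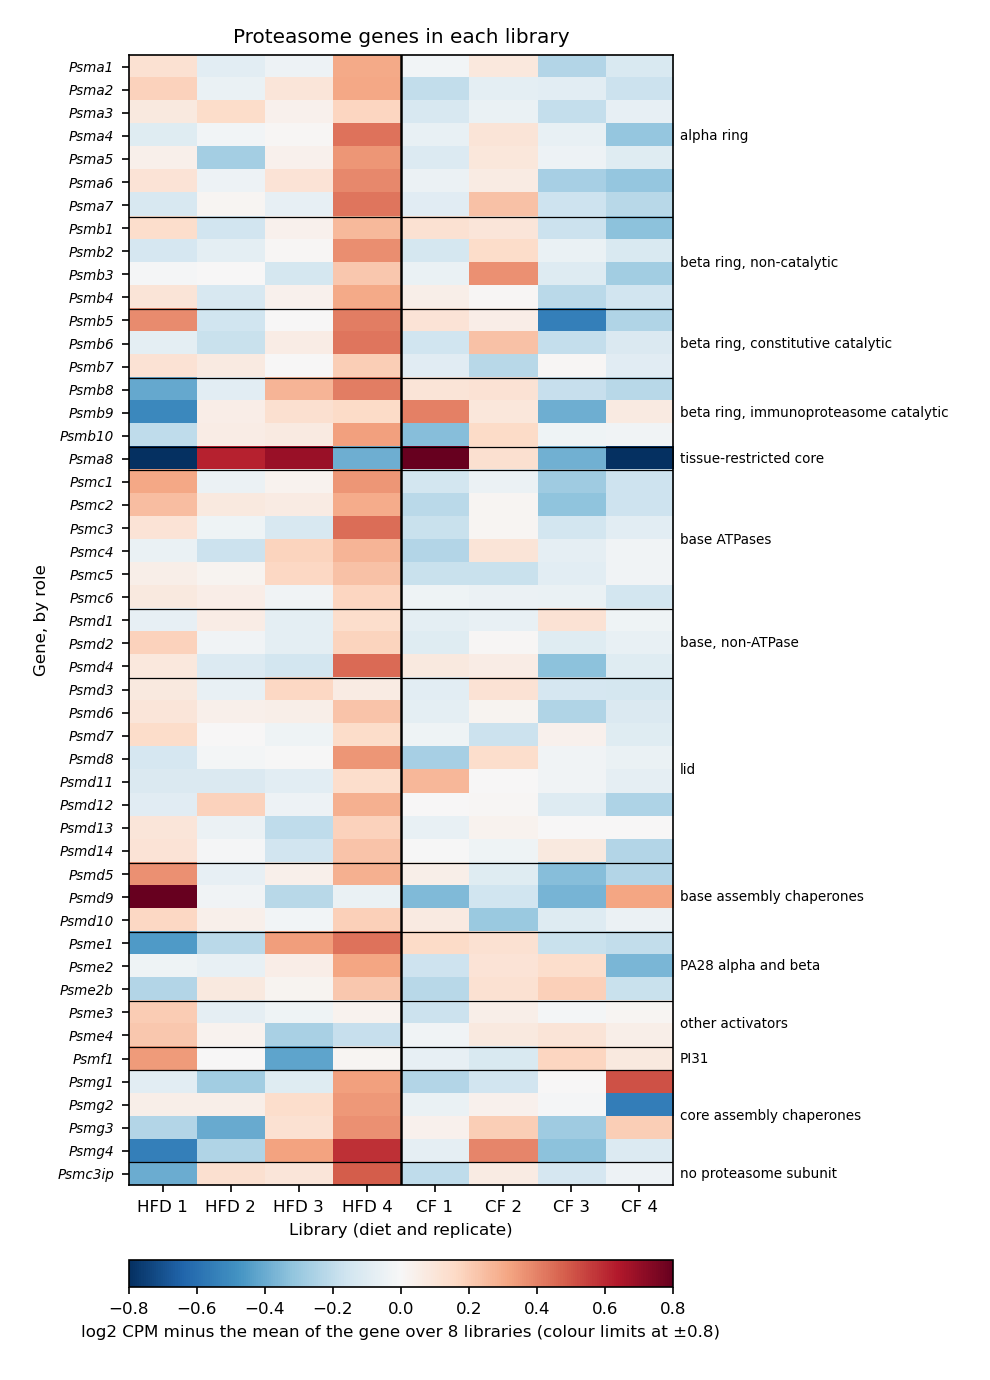
Heat map of the log2 CPM of each of the 49 genes (rows, grouped by role) in each library (columns), minus the mean of the gene over the 8 libraries. The column of HFD replicate 4 is red in nearly all roles, and it was the highest library for 37 genes, while HFD replicate 1 is blue for Psmb8, Psmb9, Psmb10 and Psme1.

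**Figure D2:**
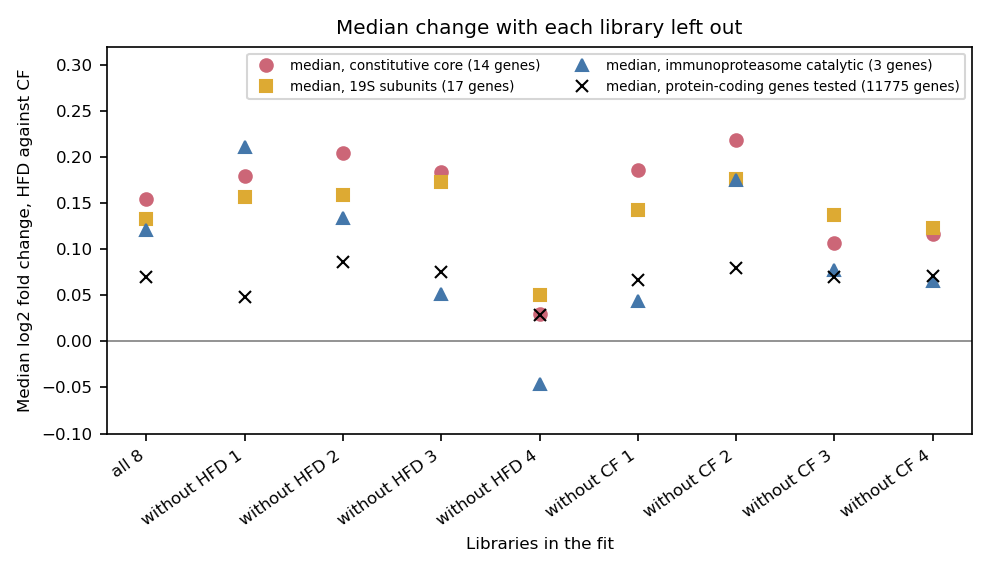
Median log2 fold change of HFD against CF (vertical axis) with all 8 libraries and with each library left out (horizontal axis), for the constitutive core, the 19S subunits, the immunoproteasome catalytic subunits and all protein-coding genes tested. Without HFD replicate 4 the median of the constitutive core came to 0.03, equal after rounding to that of protein-coding genes.

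The alpha subunits form the outer rings of the core and the gate through which substrates enter. All 7 had a log2 fold change above 0, from 0.09 to 0.28, with a median of 0.17, and 0 were called. Psma2 had 27.6, 23.4, 26.0 and 30.1 CPM in HFD and 21.2, 23.0, 22.9 and 21.5 in CF. The groups did not overlap, but the gap between them was narrow, and the log2 fold change was 0.27 ± 0.10 (SE; edgeR, adjusted p = 0.453). Psma3 had 25.9, 27.2, 25.2 and 27.6 CPM in HFD and 22.5, 23.6, 21.5 and 23.4 in CF. Its groups were apart with a small spread in each, and the estimate was 0.22 ± 0.09 (edgeR, adjusted p = 0.508). Psma6 had the largest estimate of the ring, 0.28 ± 0.13 (edgeR, adjusted p = 0.616), with 43.9 CPM in HFD replicate 4 and overlap between the diets. Without HFD replicate 4, 4 of the 7 were above 0, with a median of 0.03. Psma8, which replaces Psma7 in the core of germ cells, had at most 1.55 CPM in any library and the lowest level of all members.

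The non-catalytic beta subunits Psmb1 to Psmb4 complete the inner rings. Their log2 fold changes lay between 0.02 (Psmb3) and 0.16 (Psmb4), and all 4 had groups that overlapped. Without HFD replicate 4, 2 of the 4 were above 0, with a median of -0.02. Psmb1, the lowest of the 4 per kilobase of exon, had 34.0, 27.7, 31.6 and 37.0 CPM in HFD and 33.5, 33.0, 27.5 and 24.6 in CF. The diets overlapped over most of their range, with the lowest library in CF and the highest in HFD (log2 fold change 0.14 ± 0.14; edgeR, adjusted p = 0.879).

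Of the constitutive catalytic subunits, Psmb5 has chymotrypsin-like, Psmb6 caspase-like and Psmb7 trypsin-like activity. Psmb5 had 11.4, 7.83, 8.79 and 11.6 CPM in HFD and 9.43, 9.10, 5.98 and 7.41 in CF. HFD replicates 1 and 4 were above all CF libraries and HFD replicates 2 and 3 among them, which gave an estimate of 0.31 ± 0.20 on the log2 scale (edgeR, adjusted p = 0.779). Psmb6 had 15.9, 14.8, 17.4 and 22.4 CPM in HFD and 14.99, 19.7, 14.6 and 15.4 in CF. Its diets overlapped, and 1 library was high in each (log2 fold change 0.12 ± 0.16; edgeR, adjusted p = 0.922). The transcript of Psmb5 also shares 40.0% of its 75-base words with transcripts of 2 other genes, mainly a processed pseudogene (35.8%). Of the other core subunits, Psma5 shares 39.8%, Psmb3 33.1%, Psma3 21.3% and Psma4 12.9%, so uniquely mapped counts of these 5 genes may be too low in both diets. Psmb7 had 23.7, 23.0, 21.9 and 25.1 CPM in HFD and 20.5, 18.7, 21.98 and 20.5 in CF. Only HFD replicate 3 and CF replicate 3 kept the diets from being apart, and the estimate was 0.19 ± 0.10 (edgeR, adjusted p = 0.676). Part of the Psmb7 exons (405 bases) overlaps exons of Nek6 on the other strand, and the sources used here do not say whether the counting used strand.

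The immunoproteasome subunits were expressed in every library of both diets. Psmb8, the counterpart of Psmb5, had 30.0, 37.5, 48.2 and 53.0 CPM in HFD and 42.7, 43.1, 35.1 and 34.2 in CF. HFD held both the lowest and the highest library, and the mean of 42.2 ± 10.4 CPM (SD, n = 4) in HFD differed from 38.8 ± 4.77 (SD, n = 4) in CF by less than the spread (log2 fold change 0.12 ± 0.18; edgeR, adjusted p = 0.932). Psmb9, the counterpart of Psmb6, had 14.0, 20.8, 21.9 and 22.3 CPM in HFD and 26.5, 21.3, 15.2 and 21.1 in CF. The low values were in HFD replicate 1 and CF replicate 3, and the log2 fold change was -0.09 ± 0.20 (edgeR, adjusted p = 0.960). Psmb10, the counterpart of Psmb7, had 10.9, 13.2, 13.3 and 15.8 CPM in HFD and 9.97, 14.0, 12.3 and 12.4 in CF. These groups overlapped over most of their range (log2 fold change 0.13 ± 0.15; edgeR, adjusted p = 0.905). Psmb8 shares 498 exon bases with Gm20496 and Psmb9 shares 212 with Tap1, both on the other strand, so some counts of these genes are uncertain.

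Summed over Psmb8, Psmb9 and Psmb10, the level was 54.9, 71.4, 83.3 and 91.1 CPM in HFD and 79.1, 78.4, 62.7 and 67.6 in CF. Among the 4 HFD libraries, this order was the reverse of that of the summed neutrophil markers, and HFD replicate 1 was the lowest of all 8 libraries. In CF the order was not the reverse, because CF replicate 2 had the highest neutrophil sum of that diet (6585 CPM) beside 78.4 CPM of the immunoproteasome subunits. The constitutive core of 14 genes did not share this order, with 388, 362, 378 and 472 CPM in HFD and 362, 401, 338 and 329 in CF. Without HFD replicate 1, the median log2 fold change of the 3 immunoproteasome subunits was 0.21, and without HFD replicate 4 it was -0.05. HFD replicate 1 also had the highest erythroid and B cell and the lowest Flt3 levels, and the part of these cells and of neutrophils in the values was not tested.

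**Figure D3:**
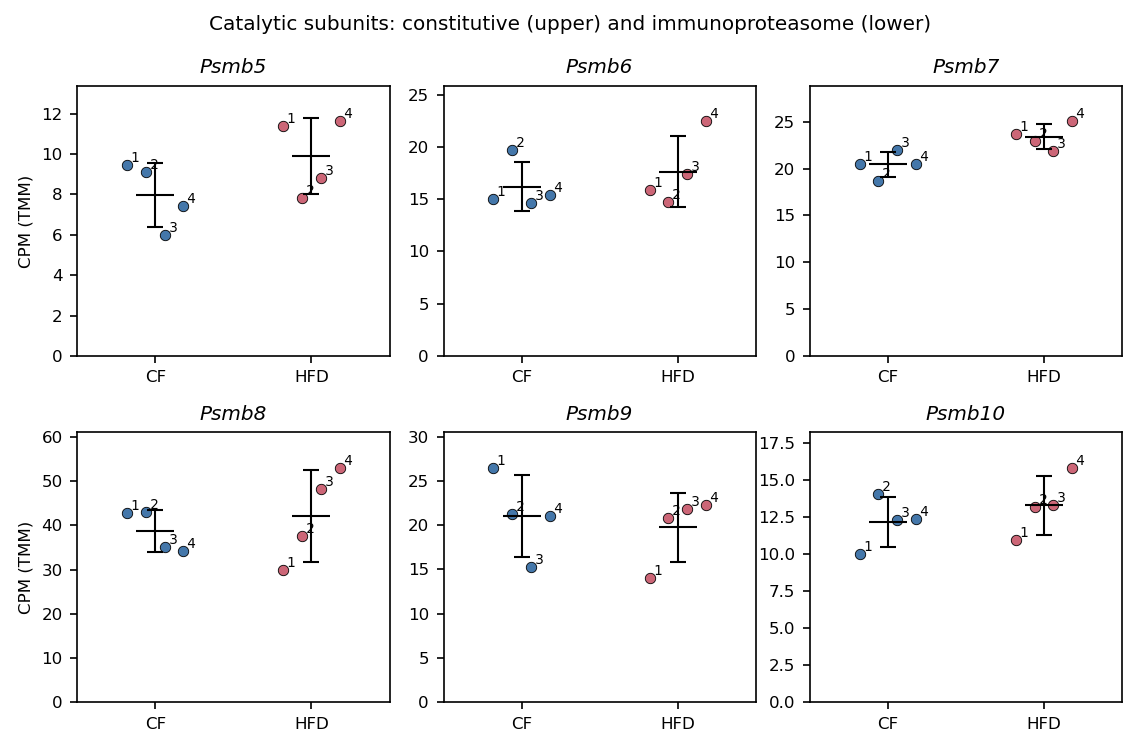
CPM of the constitutive catalytic subunits (upper row) and of the immunoproteasome subunits that replace them (lower row) in CF and HFD. Points are libraries numbered by replicate, and bars are the mean and SD of 4. HFD replicate 1 is the lowest HFD library in all 3 immunoproteasome panels, and the diets overlap in each of the 6 panels.

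The balance of both forms was followed as a ratio of counts per kilobase within each library. Psmb8 over Psmb5 was 0.699, 1.27, 1.46 and 1.21 in HFD and 1.202, 1.26, 1.56 and 1.22 in CF. HFD replicate 1 was thus well below the other 7 libraries, which lay together. Psmb9 over Psmb6 was 0.451, 0.721, 0.642 and 0.508 in HFD and 0.904, 0.554, 0.532 and 0.699 in CF, and Psmb10 over Psmb7 was 0.927, 1.149, 1.22 and 1.27 in HFD and 0.975, 1.503, 1.12 and 1.21 in CF. HFD replicate 1 was the lowest library in these ratios as well, and the diets overlapped in both. On the log2 scale, the mean in HFD minus the mean in CF was -0.22, -0.20 and -0.07 for the 3 ratios, against SDs between libraries of 0.17 to 0.47. Without HFD replicate 1 these differences were 0.0059, -0.09 and 0.03. The level of a ratio depends on the gene length used. With the length of the principal transcript in place of all annotated exons, the mean log2 ratio of Psmb8 to Psmb5 moved from 0.16 to 1.22 in HFD and from 0.38 to 1.44 in CF, while the difference between the diets was the same by construction.

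The interferon and class I list holds 8 genes that act with the immunoproteasome in antigen presentation or in its induction. None of the 8 was called, beside 0.423% of all genes tested, and 1 was above 0, beside 64.6% of protein-coding genes. The median was -0.10 on the log2 scale, and that over protein-coding genes 0.07. Tap1, a subunit of the transporter that carries peptides into the endoplasmic reticulum, had 30.7, 31.1, 40.4 and 34.6 CPM in HFD and 50.7, 51.9, 49.1 and 55.4 in CF. Every HFD library was below every CF library, as for 0.951% of protein-coding genes. The log2 fold change of -0.60 ± 0.11 (edgeR, adjusted p = 0.072) did not pass the threshold. Irf1, a transcription factor of the interferon response, was at -0.23 ± 0.18 on the log2 scale (edgeR, adjusted p = 0.833). Nlrc5, the class I transactivator, had -0.23 ± 0.19 (edgeR, adjusted p = 0.841). Psmb9 and Tap1 are neighbours on chromosome 17, read in opposite directions, with 225 bases between their RefSeq starts (GRCm38.p6, chr17:34187331-34187555). The estimate for Psmb9 was near 0 and that for Tap1 was not, and the difference between them was not tested.

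The 6 base ATPases Psmc1 to Psmc6 form the ring that unfolds substrates. All 6 were above 0, with a median log2 fold change of 0.22, and they held 3 of the 6 lowest p-values of the members. Psmc2 had 30.3, 26.9, 26.7 and 31.4 CPM in HFD and 21.99, 25.8, 20.4 and 22.7 in CF. The diets were apart, with CF replicate 2 close to the HFD libraries, and the log2 fold change of 0.34 ± 0.11 (edgeR, adjusted p = 0.301) was the largest of the members. Without HFD replicate 4 it was 0.26 ± 0.12 (edgeR, adjusted p = 0.738). Psmc1 had 25.7, 20.04, 21.1 and 26.4 CPM in HFD and 18.7, 20.04, 17.04 and 18.4 in CF. Its groups touched at 20.04 CPM, and the log2 fold change was 0.33 ± 0.12 (edgeR, adjusted p = 0.439). Psmc5 had 17.7, 17.5, 19.3 and 20.2 CPM in HFD and 15.1, 15.2, 16.2 and 16.8 in CF. All HFD libraries were above all CF libraries (log2 fold change 0.24 ± 0.10; edgeR, adjusted p = 0.534). Psmc6 was also apart, at 33.5 to 38.4 CPM in HFD, against 30.7 to 33.3 in CF. With HFD replicate 4 left out, all 6 ATPases were above 0, where 56.3% of protein-coding genes were. Their median was then 0.11, beside 0.03 for protein-coding genes, with Psmc4 (0.0034) and Psmc3 (0.04) close to 0.

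Of the other base subunits, Psmd1 and Psmd2 are the scaffolds and Psmd4 is a ubiquitin receptor. Psmd2 had 47.1 to 56.4 CPM in HFD, against 46.4 to 49.9 in CF, and the log2 fold changes of the 3 genes were 0.03, 0.13 and 0.15, with 0 called. Of the 8 lid subunits, which include the deubiquitinase Psmd14, 7 were above 0, with a median of 0.11. Without HFD replicate 4, 4 of the 8 lid subunits were above 0, with a median of 0.03, and 1 of the 3 other base subunits, with a median of -0.03. Psmd6 was the lid gene with separated diets, at 24.7, 23.7, 23.8 and 27.0 CPM in HFD and 21.9, 23.4, 19.5 and 21.3 in CF. The separation was smaller than the range within either diet, and the log2 fold change was 0.20 ± 0.10 (edgeR, adjusted p = 0.659). Psmd11 had 33.2, 33.1, 33.9 and 39.6 CPM in HFD and 43.2, 36.1, 35.3 and 34.2 in CF. It was below 0 at -0.09 ± 0.11 (edgeR, adjusted p = 0.915), the lowest p among the members below 0, and 3 of its 4 HFD libraries lay below all CF libraries. The estimate was -0.0095 without CF replicate 1 and -0.19 without HFD replicate 4.

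Psmd5, Psmd9 and Psmd10 are chaperones that assemble the base and leave the finished particle. All 3 were above 0, with a median of 0.32 and 0 called, and they stayed above 0 without HFD replicate 4, with a median of 0.23. Psmd5 had 23.0, 17.1, 18.3 and 21.8 CPM in HFD and 18.5, 16.7, 14.1 and 15.2 in CF. CF replicate 1 reached into the HFD range, and the log2 fold change was 0.32 ± 0.14 (edgeR, adjusted p = 0.577). Psmd9 had 13.5, 7.24, 6.32 and 7.11 CPM in HFD and 5.79, 6.62, 5.70 and 9.201 in CF. HFD replicate 1 was the highest and CF replicate 4 the next, with an estimate of 0.32 ± 0.27 (edgeR, adjusted p = 0.844) that came to 0.013 without the first and 0.50 without the second, and 1849 of the exon bases of Psmd9 overlap Gm26745 on the other strand. Psmg1 to Psmg4 are chaperones of the core. Psmg2 had 9.92 to 12.2 CPM in HFD, against 6.55 to 9.86 in CF, which did not overlap (log2 fold change 0.28 ± 0.16; edgeR, adjusted p = 0.743), and 3 of its CF libraries were at 9.25 CPM or more. Without CF replicate 4 the estimate was 0.16. Psmg1 (-0.08 ± 0.21; edgeR, adjusted p = 0.968) and Psmg3 (-0.05 ± 0.21; edgeR, adjusted p = 0.980) were below 0.

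Activators bind the ends of the core in place of the 19S particle. Psme1 and Psme2 are the interferon-inducible subunits of PA28, Psme3 forms a nuclear relative of it, and Psme4 is the large activator PA200. Psme1 had 24.8, 29.3, 42.8 and 45.9 CPM in HFD and 37.9, 37.0, 30.1 and 29.7 in CF. As for Psmb8, HFD held both extremes and HFD replicate 1 was the lowest of all (log2 fold change 0.09 ± 0.21; edgeR, adjusted p = 0.963). The estimate was 0.23 without HFD replicate 1, -0.01 without HFD replicate 3 and -0.10 without HFD replicate 4. Psme2 had 21.5, 21.1, 22.8 and 27.3 CPM in HFD and 19.6, 23.7, 24.2 and 17.1 in CF. Its diets overlapped, and the fitted difference was 0.13 ± 0.15 on the log2 scale (edgeR, adjusted p = 0.892). Psme2b is a copy of Psme2 on another chromosome. Of the 75-base words of its transcript, 60.2% are in transcripts of other genes, mainly Psme2, and 51.7% of those of Psme2 are in Psme2b. Uniquely mapped counts of Psme2 and of Psme2b (3.82 to 5.22 CPM) may therefore be too low in both diets, and both genes are uncertain.

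Psme3 had 66.8, 55.2, 56.8 and 59.3 CPM in HFD and 51.4, 60.0, 57.4 and 58.6 in CF. Its libraries lay close together apart from HFD replicate 1 (log2 fold change 0.07 ± 0.10; edgeR, adjusted p = 0.932). Psme4 had 70.5, 62.0, 50.8 and 53.4 CPM in HFD and 59.5, 64.2, 65.3 and 62.8 in CF. HFD replicates 3 and 4 were the lowest and HFD replicate 1 the highest, opposite to Psme1, at -0.09 ± 0.12 on the log2 scale (edgeR, adjusted p = 0.923). Psme1 over Psme3 per kilobase ran from 0.496 to 1.03 in HFD and from 0.677 to 0.982 in CF, and Psme2 over Psme3 from 0.537 to 0.769 and from 0.488 to 0.704. In both ratios the diets overlapped, and Psme2 over Psme3 may be too low for the words Psme2 shares with Psme2b. Psmf1, the PI31 protein that binds and regulates the core, had 20.5, 16.2, 12.1 and 16.4 CPM in HFD and 15.5, 14.9, 18.3 and 17.2 in CF. Its estimate was close to 0, at -0.01 ± 0.16 (edgeR, adjusted p = 0.995).

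**Figure D4:**
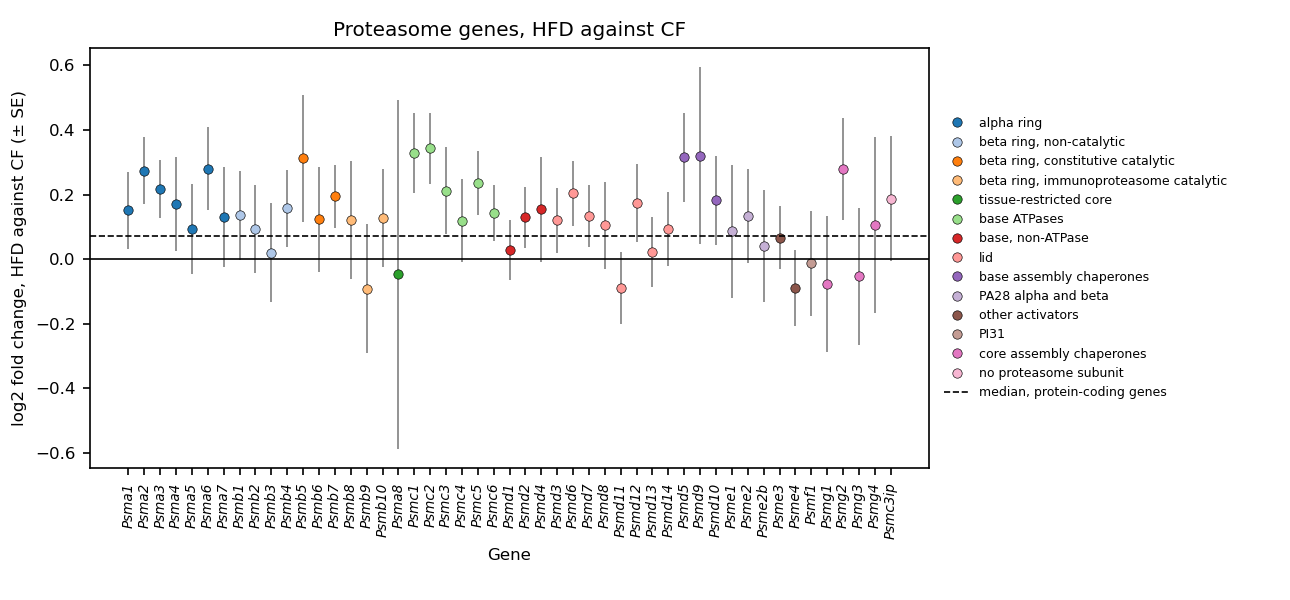
Fitted log2 fold change of HFD against CF for each of the 49 genes (points, coloured by role) with its SE (bars), beside 0 (solid line) and the median of protein-coding genes (dashed line, 0.07). The 31 subunits of the constitutive core and of the 19S particle are above 0 except Psmd11, beside 64.6% of protein-coding genes, but without HFD replicate 4 only 8 of 14 core and 11 of 17 19S subunits were, and no gene was called.

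Proteins that work with the proteasome were taken from a list of 26 names, of which 23 were in the table. None was called, beside 0.423% of all genes tested, and 17 were above 0, beside 64.6% of protein-coding genes. The median of 0.07 equalled that of protein-coding genes after rounding. Pomp, the maturation factor that places the beta subunits in the new core, had 19.8, 21.0, 19.2 and 22.4 CPM in HFD and 14.3, 15.8, 14.8 and 18.7 in CF. The diets were apart, and the estimate was 0.37 ± 0.12 (edgeR, adjusted p = 0.291). Adrm1, a ubiquitin receptor of the base, had overlapping diets (0.20 ± 0.12; edgeR, adjusted p = 0.774). Nfe2l1, which encodes the transcription factor that raises proteasome gene expression when the protease is inhibited, was named after its values were seen. It had 17.2, 28.5, 28.9 and 9.34 CPM in HFD and 28.3, 31.7, 27.2 and 27.0 in CF, so HFD replicate 4, the library in which most members were highest, was the lowest for Nfe2l1 (log2 fold change -0.44 ± 0.32; edgeR, adjusted p = 0.811).

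Levels were compared between genes only per kilobase. Over all annotated exons, Psma6 was the highest member at 27.5 CPM per kilobase (mean of both diets), followed by Psmb2 at 21.2 and Psme3 at 19.7, and Psma8 was the lowest at 0.317. By this scale, levels in the core ran from Psma3 (6.32) to Psma6 in the alpha ring, from Psmb1 (6.77) to Psmb2 among non-catalytic beta subunits, from Psmb7 (6.41) to Psmb5 (9.95) among constitutive catalytic ones and from Psmb9 (5.57) to Psmb8 (11.97) in the immunoproteasome. In the 19S particle they ran from Psmc2 (5.12) to Psmc4 (12.9) among the ATPases, from Psmd4 (6.53) to Psmd2 (12.3) in the rest of the base and from Psmd11 (5.65) to Psmd8 (14.03) in the lid. Base chaperones ran from Psmd9 (1.06) to Psmd10 (4.17), core chaperones from Psmg3 (1.55) to Psmg4 (9.41), PA28 from Psme2b (5.41) to Psme1 (15.7) and the other activators from Psme4 (7.29) to Psme3. Annotated exons include retained introns and extended ends. Per kilobase of the principal transcript, Psma7 was highest at 47.5 CPM, Psma6 was in place 4 of 49, and Psmb5 moved from above to below Psmb6 (9.95 against 21.2). On both scales Psmb8 was above Psmb5 (11.97 against 9.95, and 24.9 against 9.95), but Psmb5 may be too low for the words it shares with a pseudogene. Of the 48 pairs of neighbours, 39 over all exons and 44 over principal transcripts differed by less than the mean SD between libraries, which for Psmb8 over all exons was 3.07 CPM per kilobase in HFD and 1.41 in CF.

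**Figure D5:**
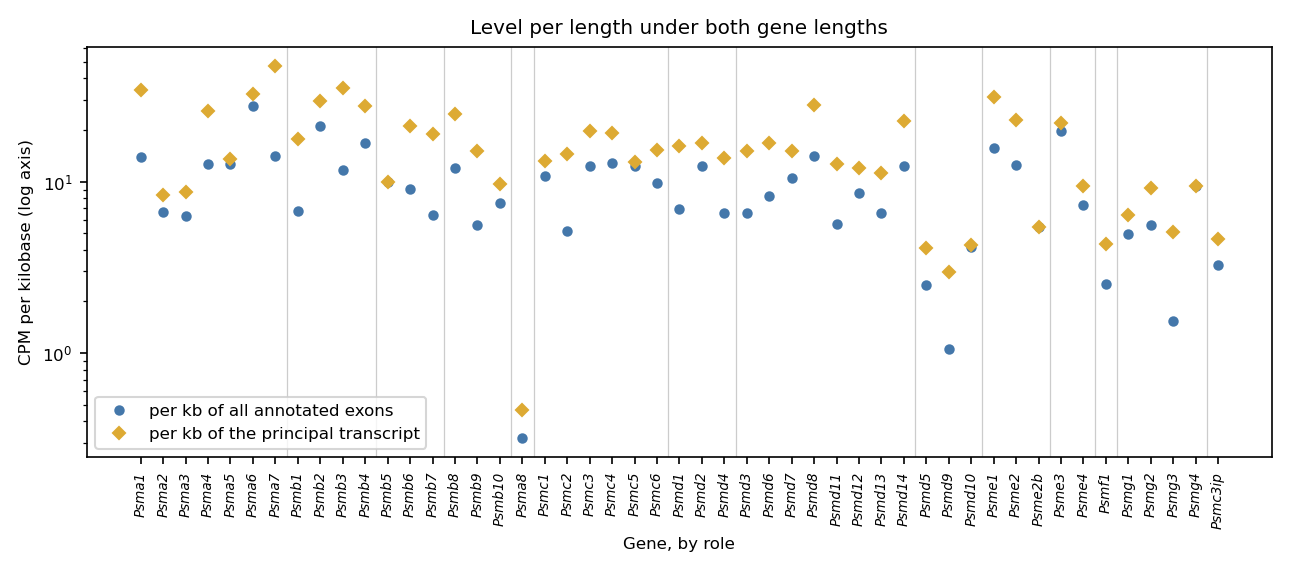
Mean level of each gene over both diets in CPM per kilobase (log axis), divided by the length of all annotated exons (circles) or of the principal transcript (diamonds), with roles separated by grey lines. The order within a role depends on the length used, while Psma8 is the lowest gene on both scales.

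To describe the promoters of these genes, RefSeq windows of GRCm38.p6 (250 bases before to 50 after a start) were searched for 3 motifs on both strands. Windows were matched for 42 of the 50 genes, 45 windows in all, which include Psmb11. Those of Psma8, Psmb1, Psmb2, Psmb7, Psmc3, Psmd3, Psmd7 and Psmg2 were not matched. CCAAT, the box bound by NF-Y, was in 33.3% of the members' windows and in 37.4% of all 32851 windows. TGACNNNGC, the core of the antioxidant response element read by Nfe2l1 and its relatives, was in 13.3% and 12.4%, and before the start alone in 11.1% and 10.2%. An interferon response element (GAAA repeated after 2 bases) was in 11.1% (5 windows, of Psmb3, Psmd4, Psmd9, Psme1 and Psmg4) and 3.44%, but before the start alone in 6.67% (3 windows, of Psmb3, Psmd4 and Psmd9) and 2.98%. No window of Psmb8, Psmb9 or Psmb10 held the last of these, which says only that these letters are absent from those windows.

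Before a start, CCAAT was in 33.3% of the members' windows and 33.8% of all windows. Members with overlapping diets, such as Psma1 and Psma7, had it as well. Of the 8 members with separated diets, 7 had a matched window, and Psmc5, Psmc6 and Psmd6 had no CCAAT before a start. Those with it (Psmc2, Psmc1, Psma2 and Psma3) are shown as examples, with the box in capitals and up to 25 bases on each side, on the strand of the gene. They lie at chr5:21785222-21785274 for Psmc2 (+ strand), chr12:100110002-100110056 for Psmc1 (+), chr13:14613163-14613217 for Psma2 (+) and chr12:70974459-70974513 for Psma3 (+). The box begins 28, 175, 54 and 139 bases before the RefSeq start.
Psmc2: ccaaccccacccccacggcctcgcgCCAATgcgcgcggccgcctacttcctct
Psmc1: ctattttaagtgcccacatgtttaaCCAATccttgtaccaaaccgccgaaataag
Psma2: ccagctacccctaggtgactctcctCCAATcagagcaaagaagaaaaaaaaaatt
Psma3: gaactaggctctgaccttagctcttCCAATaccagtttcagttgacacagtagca

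Among the catalytic subunits with a matched window, Psmb5 and Psmb6 had TGACNNNGC close to a start. Both are constitutive forms whose levels are compared with the immunoproteasome above, while Psmb7, the other such form, had no matched window and was not searched. The stretches lie at chr14:54618009-54618067 (- strand) and chr11:70525323-70525356 (+), with the motif in capitals beginning 47 and 9 bases before the start.
Psmb5: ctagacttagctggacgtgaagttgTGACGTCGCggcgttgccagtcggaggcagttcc
Psmb6: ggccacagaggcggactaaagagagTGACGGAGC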

How the data were processed

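RNA of CDPs from HFD and CF mice was sequenced in 8 libraries, 4 per diet. The deposited values are raw counts per gene, which the authors obtained by aligning paired reads with HISAT2 (GRCm38), keeping uniquely mapped pairs and counting with StringTie. FastQC and cutadapt are also named in the submitters' processing notes, without versions. The columns of the table share 1 library name and differ only in a final sample number, which is also the last part of each sample's library name in the labels. Columns were assigned to samples, and so to diets, by that number alone. Uniquely mapped reads lose counts in genes with near-identical copies.

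Names, coordinates and exon lengths came from GENCODE vM21, in which 16067 of the 16119 Ensembl identifiers were found. The fit used edgeR 4.0.16 in R 4.3.3 (TMM, filterByExpr, robust quasi-likelihood, diet as the only term, Benjamini-Hochberg over 15837 genes, threshold 0.05). Totals are given in the report. Ratios used a pseudocount of 0.5 counts. Gene lengths were unions of annotated exons. Alternatives were RLE factors, library size alone, DESeq2 1.42.0, limma 3.58.1 voom, other filters, protein-coding genes alone, a replicate block and each library left out. For ratios they were a pseudocount of 5 and raw counts. The principal transcript length and the other scalings of the separation of diets and of the highest library were chosen after seeing the data.

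The members and lists were chosen with earlier results of these data known. Named with values were the catalytic subunits, Psme1 to Psme4, Psmf1, the 5 lowest p in each direction, the highest and lowest level per kilobase of each role and the 3 lowest p of the partner list and of the interferon and class I list, apart from 1 gene left out here. Psmd5, Psmd6, Psmd9, Psmc6, Psmg2, Psma6 and Nfe2l1 were added with their values in view. The figures were drawn with matplotlib 3.10.9.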

Additional observations from a re-analysis of the deposited data

Results flagged for a closer look

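Across 122 sets of 4 libraries of the members, their ratios and the named partner genes, 5 held a library whose distance to the nearest of the others passed the 95% limit of Dixon's test, and chance gives about 1 in 20. For the members these were Psmb6 in CF replicate 2 (19.7 CPM, others 14.6 to 15.4), Psmc6 in CF replicate 4 (30.7 CPM, others 32.9 to 33.3), Psmd11 in HFD replicate 4 (39.6 CPM, others 33.1 to 33.9) and Psmd9 in HFD replicate 1 (13.5 CPM, others 6.32 to 7.24). For the partners it was Adrm1 in CF replicate 3 (10.2 CPM, others 9.13 to 9.28). No cause was tested.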

How the results depend on the processing

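No member was called under any of the 16 alternatives run. Of 783 member values under an alternative, 736 kept their sign and 47 did not, 18 of these without HFD replicate 4. Library size alone moved the median of protein-coding genes up by 0.19 and that of the members to 0.34, with 16 members higher at an unadjusted p below 0.05, in place of 6, while the share of protein-coding genes rose from 3.71% to 11.2%. Protein-coding genes alone gave 3 such members, where the share was 2.42%. With each library left out, the median over the members ran from 0.0040 to 0.18, the members above 0 from 26 to 44, and those at an unadjusted p below 0.05 from 0 to 6, the lowest of each without HFD replicate 4, while the shares of protein-coding genes ran from 56.3% to 65.5% and from 2.06% to 5.57%. Those at an unadjusted p below 0.05 were 3 without CF replicate 1, and 2 each without CF replicates 3 and 4. In the fit with the replicate block 0 members were called and 1 had an unadjusted p below 0.05 (1.82% of protein-coding genes). Same-numbered libraries of the diets did not deviate together (r = -0.44, -0.08, -0.23 and -0.18). With 4 libraries per diet that differ in cell type markers, these values cannot exclude that the numbers mark a shared preparation. HFD replicate 4 was the highest library in 33 to 38 members under the scalings tried, where it was so in 16.3% to 19.4% of protein-coding genes. Members with separated diets numbered 7 to 8 under the scalings, where 2.44% to 7.27% of protein-coding genes were separated, and 8 to 10 with a library left out, where 3.89% to 7.26% were. Psma8, with 12 to 60 counts, carried the largest counting error of the members.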
